A study of Mus musculus with 4 samples.

Results

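The genes that encode elastic fibres were described in sections of infarcted and uninjured mouse hearts. They comprise 10 of the 21885 genes counted: Eln, Fbn1, Mfap2, Mfap4, Mfap5, Fbln1, Fbln2, Fbln5, Efemp2 and Emilin1. They were chosen by symbol and not by a cut on their values, but with earlier results of these data known. All 10 were detected in every section. Each value is a level of RNA captured on spots, and not of protein or of assembled fibre.

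Elastic fibres let tissue stretch and recoil. Tropoelastin, the product of Eln, is laid down on a scaffold of microfibrils whose backbone is fibrillin-1, the product of Fbn1, and is then cross-linked by lysyl oxidases. The microfibril-associated glycoproteins (Mfap2, Mfap5) and Mfap4 bind the scaffold, the short fibulins fibulin-5 and fibulin-4 (Fbln5, Efemp2) bring tropoelastin and lysyl oxidase together, fibulin-1 and fibulin-2 (Fbln1, Fbln2) bind both elastic fibres and basement membranes, and Emilin1 sits between elastin and microfibrils. In the healthy heart elastic fibres are found mainly in the walls of coronary vessels, under the endocardium and in the epicardium, and after infarction matrix genes are expressed mainly by activated fibroblasts.

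Visium arrays, in which each spot covers a small region that can hold several cells, were used on fresh frozen hearts of Collagen1a1-GFP+ mice aged 8-12 weeks, a reporter line in which GFP marks cells that express type I collagen. There was 1 healthy control section, labelled female, 1 section 3 days after myocardial infarction (3 dpi), labelled female, and 2 sections at 5 dpi, 1 labelled female and 1 labelled male, each from 1 heart. The control and 3 dpi groups therefore have no replicate, and the tests between zones or spot classes rest on the spread between 3 or 4 hearts. Values at 5 dpi are given in the order labelled female, labelled male.

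The sections held 1146 to 1741 kept spots and 3742105 to 9540940 non-mitochondrial UMIs, molecules counted by their tags. Y-linked RNA went against the sex labels at 5 dpi, with 704 UMIs of 4 Y-linked genes in the section labelled female and 1 in that labelled male, so the labels serve here only as names. Levels are UMI counts per 1000000 non-mitochondrial UMIs (CPM), and an interval in brackets is a 95% Poisson interval, which covers counting error only. Spots were placed in zones by the share of 12 cardiomyocyte genes in their UMIs. The infarct zone (IZ) is made of connected spots with under 0.5 times the share that marks the 90th percentile of their section, border zone 2 (BZ2) lies up to 2 spots away from it, border zone 1 (BZ1) is the next ring, 3 to 4 spots out, and all spots beyond it form the remote zone (RZ). The IZ of the 3 dpi section kept a median cardiomyocyte share of 2.11%, against 0.180% and 0.265% at 5 dpi. In the control the cardiomyocyte list stood at 101300 CPM.

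Across whole sections, 8 of the 10 genes were at least 2-fold higher in all 3 infarcted sections than in the control. This was true of 26.0% of 3524 genes that reached 50 CPM in a section. Of the 8, Mfap2, Mfap4, Fbln5, Efemp2 and Emilin1 were under 50 CPM in the control. They entered the count only through infarcted sections, where they were high. Of the 10 genes 0 were at least 2-fold lower in all 3, as 8.63% of the 3524 were. Mitochondrial genes, left out of the total behind CPM, took 40.1% of the control's UMIs but 21.4% in the 3 dpi section and 13.3% and 14.3% in those of 5 dpi, and 27.5% to 41.3% in RZ against 3.30% to 9.92% in IZ. Fbn1, the microfibril backbone, was at 66.3 CPM in the control section, 546 at 3 dpi, and 932 and 826 at 5 dpi. The microfibril-associated Mfap5 stood at 67.3, 427, 785 and 666 CPM in these sections, and Mfap2, the lowest of the genes, at 4.81 (2.85 to 7.60), 33.4, 63.4 and 49.1 CPM. For these scaffold genes the lowest infarcted section was 6.34 to 8.23 times the control.

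Mfap4, which binds tropoelastin and fibrillin, was at 30.5 CPM in the control section, 158 at 3 dpi, and 507 and 576 at 5 dpi. Eln itself was at 37.1 CPM (31.2 to 43.9) in the control section, 62.9 (57.7 to 68.5) at 3 dpi, and 222 and 322 at 5 dpi. All 3 infarcted sections lay above the control, by 1.69-fold at 3 dpi and by 5.99- and 8.66-fold at 5 dpi, so that Eln missed the 2-fold limit through the 3 dpi section alone.

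Among the assembly genes, Efemp2 was at 17.1 CPM in the control section, 182 at 3 dpi, and 342 and 310 at 5 dpi, and Fbln5 at 16.6, 34.2, 143 and 130 CPM. Efemp2 was thus 10.7-fold higher at 3 dpi and Fbln5 2.06-fold. Fbln2 was at 112 CPM in the control section, 596 at 3 dpi, and 1138 and 832 at 5 dpi, and Emilin1 at 28.3, 221, 314 and 203 CPM. Both lay above the control in all 3 infarcted sections, as 9 of the 10 genes did and as 60.4% of the 3524 genes did. Fbln1 was the exception, at 107 CPM in the control section, 74.2 at 3 dpi, and 98.5 and 131 at 5 dpi, with the control between the infarcted sections. With 1 control heart none of these differences has a test. The 10 genes together made up 487 CPM in the control section, 2335 at 3 dpi, and 4547 and 4044 at 5 dpi, and the median log2 ratio of the 10 genes to the control was 2.54, 3.51 and 3.21, beside 0.44, 0.47 and 0.38 over 3516 genes.

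The make-up of the set differed between the control and the infarcted sections. Each UMI stands for 1 captured transcript end whatever the length of the transcript, so counts of different genes were added without division by length. In the control Fbln2 and Fbln1 gave 23.0% and 22.0% of the UMIs of the 10 genes, and Fbn1 and Mfap5 followed with 13.6% and 13.8%. In the infarcted sections Fbln2, Fbn1 and Mfap5 held the first 3 places, with 20.6% to 25.5%, 20.4% to 23.4% and 16.5% to 18.3%. Fbln1 gave 2.17% to 3.24% there, and Eln 2.70% at 3 dpi and 4.89% and 7.96% at 5 dpi, against 7.62% in the control.

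The comparison of IZ with RZ asks how the genes differ between infarcted and remote tissue of the same heart. Of the 10 genes, all tested, 8 were higher in IZ with an adjusted p under 0.05 (the quasi-likelihood test of edgeR on the UMI sums of the 3 infarcted sections, with the section as a block and Benjamini-Hochberg adjustment over 10013 genes) and 0 were lower, where 27.2% of all genes were higher and 25.2% lower. The median log2 fold change was 1.11 for the 10 genes and 0.08 for all genes tested. The levels of each gene by zone are shown in the plot of CPM by zone.

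**Figure D1:**
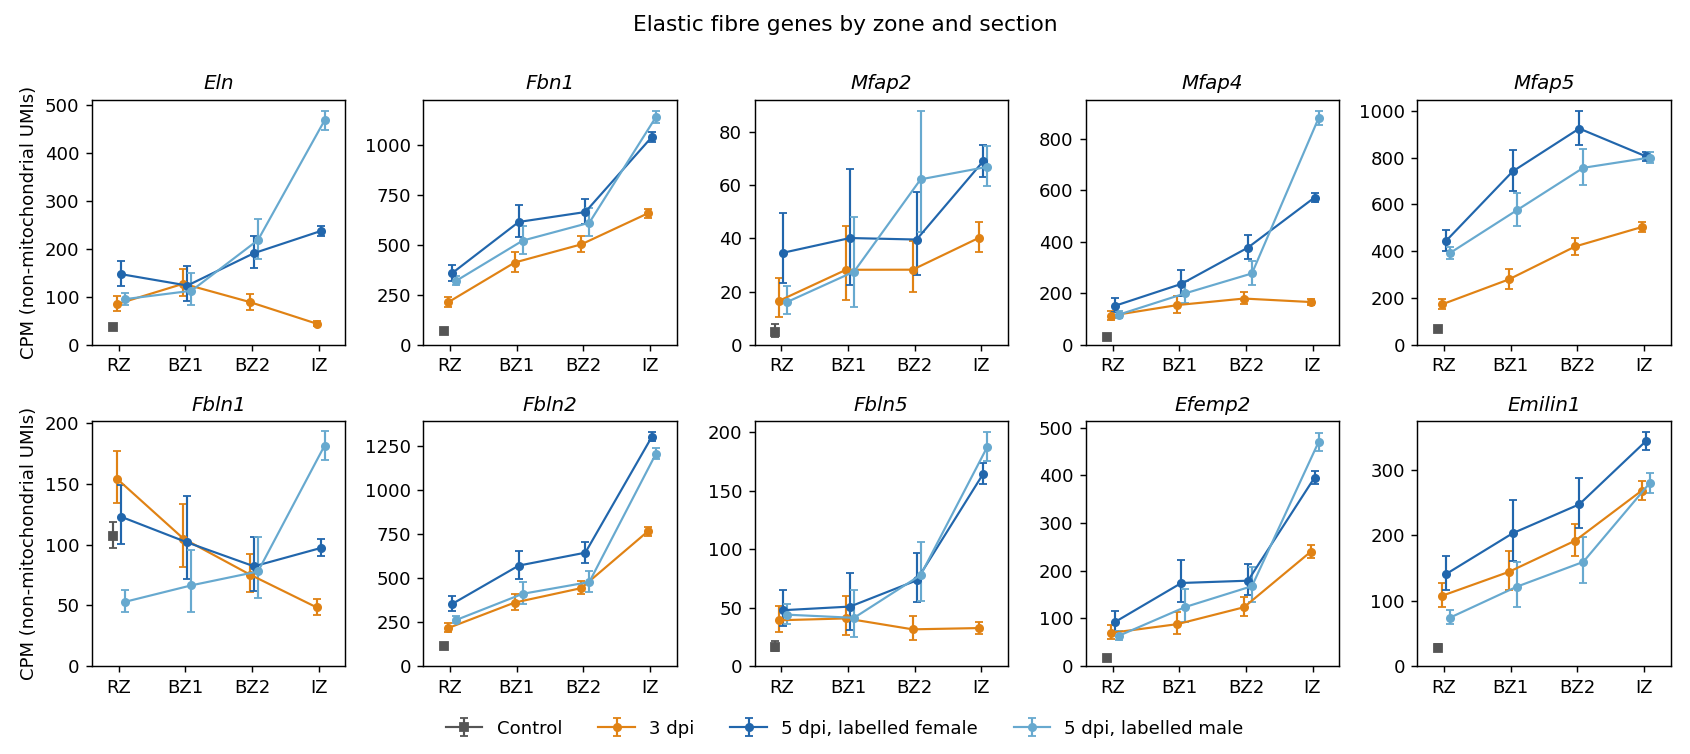
CPM (vertical axes, from 0) of the 10 genes in the remote zone (RZ), border zones (BZ1, BZ2) and infarct zone (IZ) of each section. Points are sums over the spots of a zone, bars are 95% Poisson intervals, and the square is the control. Fbn1, Fbln2, Efemp2 and Emilin1 were higher at each step from RZ to IZ in all 3 infarcted sections, while Eln, Fbln1 and Fbln5 ended lower in IZ than in RZ at 3 dpi.

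Fbn1 was at 212 CPM in RZ and 656 in IZ at 3 dpi, then 357 and 1038, and 319 and 1137 in the 5 dpi hearts. The IZ values of the 3 hearts all lay above the RZ values, and the log2 fold change came to 1.27 (SE 0.13, the quasi-likelihood test of edgeR with Benjamini-Hochberg adjusted p 3.09e-08). This value is smaller than the ratios of CPM, which were 1.63, 1.54 and 1.83 on the log2 scale for Fbn1. The 2 scales differ in their totals. The test uses all UMIs, mitochondrial ones included, scaled by TMM factors of 0.730 to 0.835 for RZ and 1.44 to 1.52 for IZ. CPM leaves mitochondrial UMIs out and has no such factor. Mfap5 was at 172 and 503 CPM in RZ and IZ at 3 dpi, 444 and 806, and 392 and 801 at 5 dpi, with a log2 fold change of 0.74 (SE 0.14, adjusted p 9.43e-05 by the same edgeR test). The call for Mfap5 was lost at an IZ limit of 0.3 (0.26, edgeR's adjusted p 0.0826) and with no block for the section (0.67, edgeR's adjusted p 0.141). Mfap2 was at 16.1 to 34.6 CPM in RZ and 40.3 to 69.1 CPM in IZ (log2 fold change 1.11, SE 0.22, adjusted p 0.000213, edgeR).

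Efemp2, or fibulin-4, had the highest log2 fold change of the 10 genes, 1.89 (SE 0.17, adjusted p 5.81e-09, the quasi-likelihood test of edgeR). It was at 69.3 CPM in RZ and 239 in IZ at 3 dpi, 91.9 and 395, and 63.3 and 469 at 5 dpi, and the IZ and RZ values did not overlap. Fbln2 was at 215 and 765, 352 and 1302, and 261 and 1205 CPM, with no overlap between the zones (log2 fold change 1.58, SE 0.13, adjusted p 1.16e-09, edgeR). Emilin1 was at 108 and 269, 141 and 345, and 74.1 and 281 CPM (log2 fold change 1.12, SE 0.13, adjusted p 5.21e-07, edgeR). These 3 genes, like Fbn1, Mfap2, Mfap5 and Mfap4, were higher in IZ within each of the 3 hearts.

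Mfap4 was at 112 CPM in RZ and 165 in IZ at 3 dpi, 150 and 571, and 116 and 879 at 5 dpi (log2 fold change 1.51, SE 0.27, adjusted p 8.32e-05, the quasi-likelihood test of edgeR). Fbln5 was at 39.1 (29.2 to 51.3) and 32.5 (27.7 to 37.9) CPM at 3 dpi, 47.8 and 165, and 43.9 and 188 at 5 dpi. Its log2 fold change over the 3 hearts was 0.96 (SE 0.29, adjusted p 0.00922, edgeR), and the call rests on the 5 dpi sections: without the section labelled female the value was 0.71 with an adjusted p of 0.16, and without that labelled male 0.49 with an adjusted p of 0.317. At 3 dpi the intervals of the zones overlapped for Fbln5.

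Eln and Fbln1 did not pass the test. Eln was at 84.3 CPM (69.4 to 101) in RZ and 43.7 (38.1 to 49.9) in IZ at 3 dpi, but at 147 and 237 CPM, and 94.7 and 467 CPM at 5 dpi, so the zones ran in opposite order in the 3 dpi heart and the 5 dpi hearts. Its log2 fold change over the 3 hearts was 0.52 (SE 0.38, the quasi-likelihood test of edgeR, adjusted p 0.266). Without the 3 dpi section it was 1.16 with an adjusted p of 4.48e-06 by edgeR, and without the 5 dpi section labelled male it was -0.34. Fbln1 was at 154 and 48.3 CPM at 3 dpi, 123 and 97.1, and 52.8 and 182 at 5 dpi, with a log2 fold change of -0.41 (SE 0.36, adjusted p 0.358, edgeR), which was -1.36, with an adjusted p of 0.000577, without the section labelled male and 0.40 without the 3 dpi section. When library totals alone were used for scaling, with no TMM factors, the median of all genes moved from 0.08 to 1.03, Eln stood at 1.48 and passed the test, and Fbln1 turned to 0.55, below that median.

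The IZ to RZ ratio was then compared between the 5 dpi hearts and the 3 dpi heart as an interaction, added after these levels had been seen. There is 1 heart at 3 dpi, so the replicate spread comes from the 2 hearts at 5 dpi, the lone heart is assumed to vary like them, and a difference between hearts cannot be told apart from one between times. Of the 10 genes 4 passed, all with a higher ratio in the 5 dpi hearts, where 0.709% of 10013 genes were higher and 2.33% lower (the quasi-likelihood test of edgeR with Benjamini-Hochberg adjustment). The log2 difference of the ratios was 2.51 for Eln (SE 0.37, adjusted p 2.59e-05), 2.47 for Fbln1 (SE 0.41, adjusted p 0.000101), 2.23 for Fbln5 (SE 0.33, adjusted p 3.09e-05) and 1.90 for Mfap4 (SE 0.30, adjusted p 6.59e-05, all by the quasi-likelihood test of edgeR). The 5 dpi hearts lay far apart for some of them: the log2 ratio of CPM in IZ over RZ was -0.34 and 1.78 for Fbln1, with 0.79-fold in the section labelled female still below 1, and 0.69 and 2.30 for Eln, against -1.68 and -0.95 in the 3 dpi heart. It was 1.79 and 2.09 for Fbln5 and 1.92 and 2.92 for Mfap4, against -0.27 and 0.56. For the scaffold genes Fbn1 and Mfap2 it was 0.05 (SE 0.22) and 0.33 (SE 0.47), for Fbln2 0.22 (SE 0.22), for Emilin1 0.29 (SE 0.27) and for Efemp2 0.74 (SE 0.30), and none of these passed, with adjusted p by edgeR of 0.225 to 0.964. Mfap5 had the opposite sign, -0.61 (SE 0.23, edgeR's adjusted p 0.174).

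**Figure D2:**
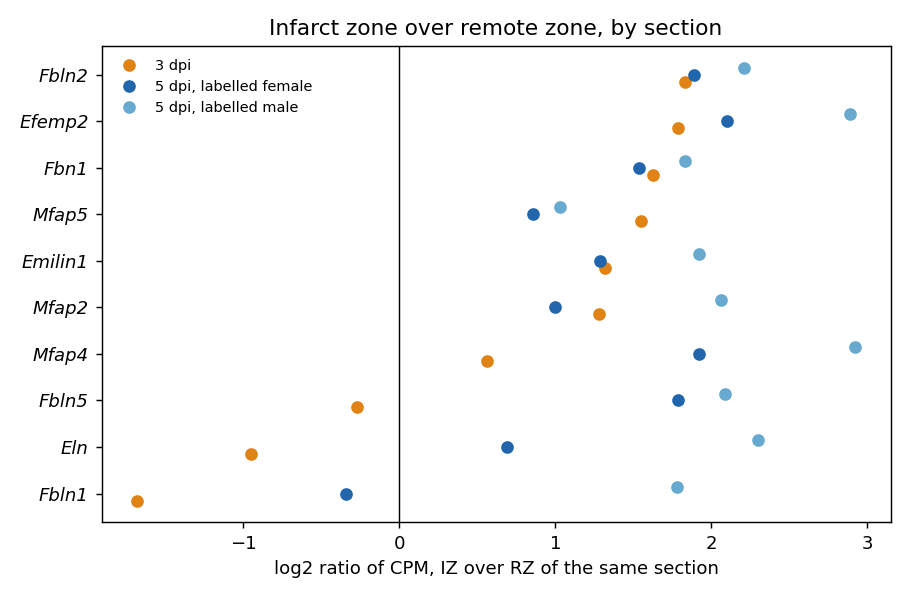
Log2 ratio of CPM in IZ over RZ of the same section (horizontal axis) for each gene, with 1 point per infarcted section and genes in the order of the 3 dpi section. Fbn1, Fbln2, Emilin1, Mfap2, Mfap4, Mfap5 and Efemp2 were right of 0 in all 3 sections, whereas Fbln1, Eln and Fbln5 were left of 0 at 3 dpi, at -1.68, -0.95 and -0.27.

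Within the IZ alone, all 10 genes were higher in both 5 dpi sections than in the 3 dpi section, as 36.5% of 3379 genes were. For Emilin1 the ratio was only 1.04 in the section labelled male, with overlapping intervals. The 4 genes Eln, Fbln1, Fbln5 and Mfap4 were at least 2-fold higher, as 2.31% were. The 3379 genes are those that reached 50 CPM in any of these IZ. Eln, Fbln1, Fbln5 and Mfap2, at 43.7, 48.3, 32.5 and 40.3 CPM at 3 dpi, reached it only at 5 dpi. They thus entered the count through the sections in which they were high. The median log2 ratio to the 3 dpi IZ was 0.77 and 0.88 for the 10 genes and -0.03 and -0.05 for all genes. The fibroblast list (8 genes) was at 11290 CPM in the 3 dpi IZ against 21260 and 19100 CPM at 5 dpi, and the smooth muscle list (4 genes) at 848, 1967 and 1597 CPM. Both lists, like the 4 genes, were higher in the 5 dpi hearts, as was the macrophage list, at 6267 CPM at 3 dpi and 9987 and 9444 at 5 dpi. The cardiomyocyte list was lower, at 20460 CPM at 3 dpi and 6719 and 8676 at 5 dpi. The part of these lists in the difference was not tested.

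The upstream sequence of 3 genes is shown as an example of each pattern, Fbn1 and Fbln2 for a similar IZ to RZ ratio at both times and Fbln5 for a ratio above 1 only at 5 dpi. RefSeq windows on GRCm38.p6 were at hand for 7 of the 10 genes, all but Eln, Mfap4 and Mfap5, and the 250 bases before the start site listed first are given, 5′ to 3′ on the strand of the gene. Capitals mark matches on either strand to the GC box (GGGCGG). This motif occurred in 32.7% of the 32851 windows of all genes.
Fbn1 (chr2:125506439-125506688, minus strand): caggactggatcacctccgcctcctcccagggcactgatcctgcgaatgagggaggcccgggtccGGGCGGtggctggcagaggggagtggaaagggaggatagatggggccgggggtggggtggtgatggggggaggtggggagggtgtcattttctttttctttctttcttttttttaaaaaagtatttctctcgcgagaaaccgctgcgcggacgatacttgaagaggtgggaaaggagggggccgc
Fbln2 (chr6:91212514-91212763, plus strand): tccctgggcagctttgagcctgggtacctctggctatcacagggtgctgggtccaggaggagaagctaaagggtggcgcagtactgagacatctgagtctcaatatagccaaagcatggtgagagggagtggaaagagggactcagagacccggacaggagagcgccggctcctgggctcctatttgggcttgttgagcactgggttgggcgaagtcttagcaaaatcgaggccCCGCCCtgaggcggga
Fbln5 (chr12:101819120-101819369, minus strand): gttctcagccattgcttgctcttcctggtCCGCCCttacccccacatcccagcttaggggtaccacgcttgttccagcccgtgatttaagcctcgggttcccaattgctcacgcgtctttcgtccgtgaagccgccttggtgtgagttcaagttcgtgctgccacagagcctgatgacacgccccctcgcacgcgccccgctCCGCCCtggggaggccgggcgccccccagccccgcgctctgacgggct
The windows of Fbn1 and Fbln2 hold 1 match each, and that of Fbln5 holds 2. An AP-1 motif (TGANTCA, in 6.75% of all windows), a short SMAD motif (CAGACA, 17.1%), a TEAD motif (GGAATG, 12.6%), a TATA box (TATAAA, 12.4%), the 8-base SMAD element (GTCTAGAC, 0.167%) and a CArG box (1.47%) had no match in these 3 windows. Fbln5 has another listed start site, whose window holds 1 short SMAD match and no GC box.

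The border comparisons ask whether levels were raised next to the infarct, in BZ2. BZ1, farther out, was not tested against RZ. There the 10 genes together were at 1735 CPM at 3 dpi, and 2853 and 2196 at 5 dpi, against 1183, 1889 and 1433 CPM in RZ. In BZ2 7 of the 10 genes were higher than in RZ, where 3.83% of 10013 genes were higher and 4.58% lower (the quasi-likelihood test of edgeR with Benjamini-Hochberg adjustment), and the median log2 fold change was 0.82 for the 10 genes and 0.02 for all. They were Mfap5 at 0.93 (SE 0.14, edgeR's adjusted p 0.00024), Mfap4 at 0.93, Efemp2 at 0.92, Fbn1 at 0.87, Mfap2 at 0.86, Fbln2 at 0.77 and Emilin1 at 0.76. Eln (0.39, SE 0.40), Fbln5 (0.26, SE 0.35) and Fbln1 (-0.61, SE 0.40) did not pass, with adjusted p by edgeR of 0.663, 0.767 and 0.429. The number of calls fell to 3 without the 5 dpi section labelled female, while higher calls over all genes fell from 383 of 10013 to 82 of 10545. It fell to 0 when the section was not used as a block, with 32 higher calls over all genes. Over all alternatives the log2 values of the 7 genes stayed above 0, from 0.27 (Mfap2) to 1.29 (Mfap4 and Mfap5).

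Between IZ and BZ2 4 of the 10 genes were higher in IZ, Efemp2 (log2 fold change 0.97, SE 0.16), Fbln2 (0.81, SE 0.12), Fbn1 (0.40, SE 0.12) and Emilin1 (0.35, SE 0.13), where 14.7% of genes were higher and 18.4% lower (the quasi-likelihood test of edgeR with Benjamini-Hochberg adjustment, adjusted p 2.7e-05 to 0.0485). Mfap5 had a log2 difference of -0.19 (SE 0.13, edgeR's adjusted p 0.312). Its CPM was 420 in BZ2 and 503 in IZ at 3 dpi, 925 and 806, and 757 and 801 at 5 dpi. It depended on the IZ limit, at -0.53 with an adjusted p of 0.0022 by edgeR at a limit of 0.3 and at 0.31 with an adjusted p of 0.148 at 0.7, so no order of border and infarct is given for Mfap5. With library totals for scaling it was 0.41, below the median of all genes, which moved from 0.04 to 0.63. The count fell to 2, Efemp2 and Fbln2, when either 5 dpi section was left out. Higher calls over all genes then fell from 1474 to 826 without the section labelled female and to 1104 without that labelled male. Over 11 alternatives Efemp2 and Fbln2 kept their calls in all, Fbn1 in 7 (log2 values 0.1 to 1.0) and Emilin1 in 4 (0.03 to 0.95).

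Inside the IZ the genes were also compared between its rim, 1 to 2 spots from the border, and its core, more than 4 spots inside, in a fit added after the levels by distance had been seen. Of the 10 genes 4 were higher in the rim, where 11.8% of 10518 genes were higher and 6.73% lower (the quasi-likelihood test of edgeR with Benjamini-Hochberg adjustment). Mfap5 was at 333 CPM in the core and 649 in the rim at 3 dpi, 688 and 1324, and 738 and 1170 at 5 dpi, with no rim value lower than the core of its own heart and a log2 fold change of 1.01 (SE 0.13, edgeR's adjusted p 3.73e-05). Mfap2 (0.87, SE 0.15), Eln (0.77, SE 0.16) and Mfap4 (0.70, SE 0.15) were the others, with adjusted p by edgeR of 0.000592, 0.00224 and 0.00386. Eln was at 42.0 and 54.7 CPM at 3 dpi, 194 and 409, and 443 and 552 at 5 dpi, and lost its call without the section labelled female (0.50, edgeR's adjusted p 0.116). Fbln2 (0.02, SE 0.14) and Efemp2 (-0.18, SE 0.13) had values near 0. With no block for the section 0 of the 4 genes passed the test, and higher calls over all genes fell from 1240 to 780. Over all alternatives the log2 values of the 4 genes stayed between 0.4 (Mfap4) and 1.11 (Mfap5).

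Spots were also binned by their cardiomyocyte share relative to the 90th percentile of the section, as in the plot by cardiomyocyte share. Fbln2 was at 226 CPM in spots at 0.75 or more of that level at 3 dpi and at 801 CPM in spots under 0.1, and at 374 and 1360, and 232 and 1301 CPM at 5 dpi. Mfap5 instead was highest in the middle bins: in the section labelled female it was at 470 CPM at 0.75 and over, 1246 at 0.25 to 0.5 and 657 under 0.1, and in that labelled male at 340, 994 and 704 CPM. Mfap4 and Eln, both higher in the rim, did not share a middle peak in every section: in the section labelled male Mfap4 was at 935 CPM under 0.1, 821 at 0.1 to 0.25 and 653 at 0.25 to 0.5, and Eln at 459, 488 and 479 CPM. Fbln5 was at 42.9 and 33.7 CPM at 0.75 and over in the 5 dpi sections, peaked at 240 and 259 CPM between 0.1 and 0.25, and was at 153 and 163 CPM under 0.1. At 3 dpi Fbln5 was at 26.6 to 41.3 CPM in every bin, with overlapping intervals. These values describe the spots of each section and carry no test.

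**Figure D3:**
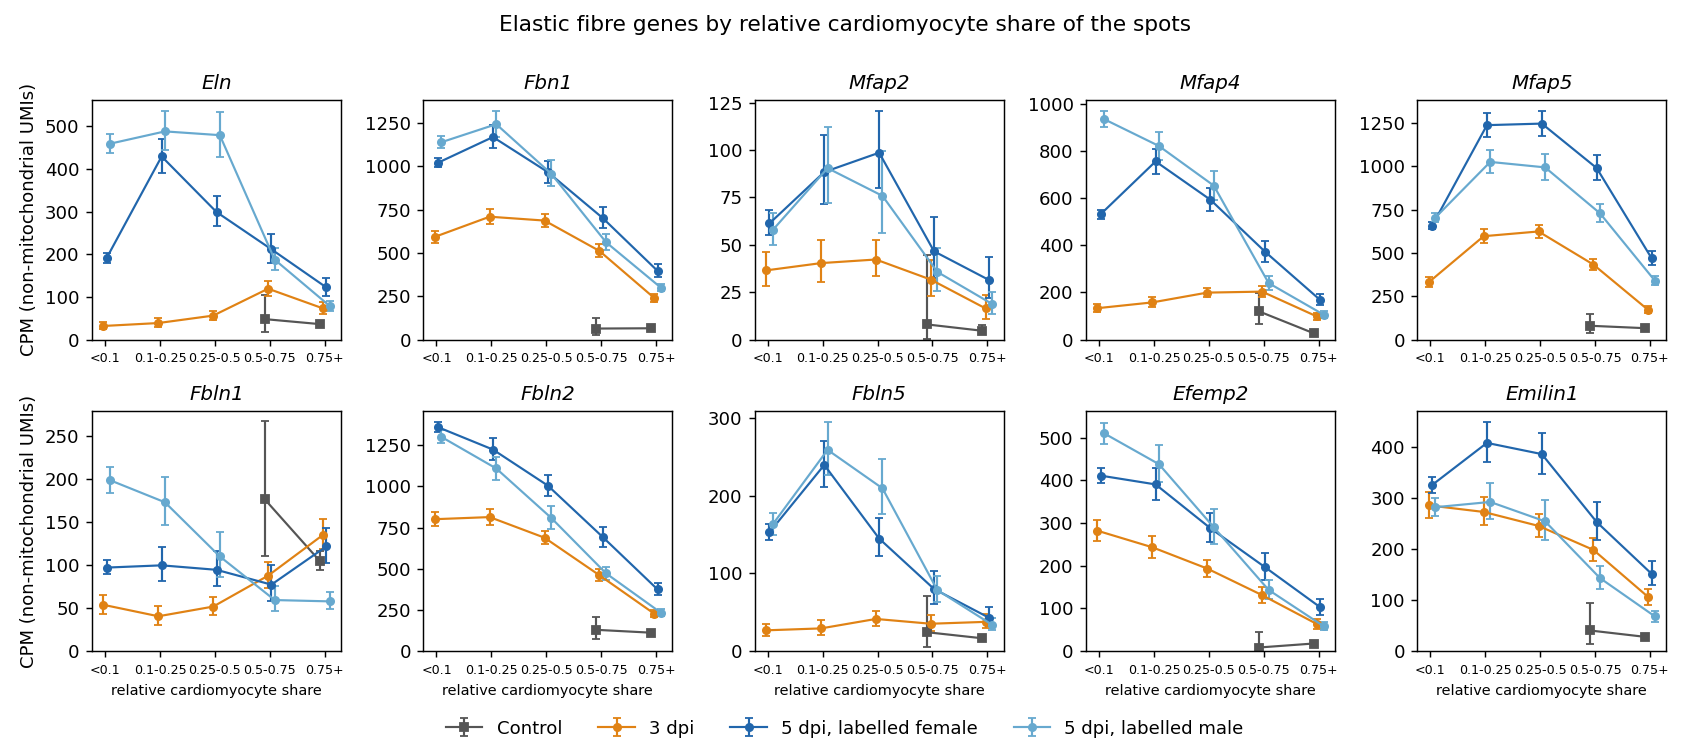
CPM (vertical axes, from 0) of the 10 genes in spots binned by cardiomyocyte share relative to the 90th percentile of their section (horizontal axes, cardiomyocyte-poor spots on the left), for bins of at least 20 spots. Bars are 95% Poisson intervals. Fbln2 and Efemp2 were highest toward the left, and Mfap5 was highest in the 0.1 to 0.5 bins of every infarcted section.

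At 5 dpi Eln was the least evenly spread of the 10 genes over the spots of the infarct, a pattern noticed on the maps of the sections. In the 5 dpi section labelled female, the 10% of IZ spots with most Eln UMIs held 55.9% of them, against 41.7% for Fbln5, 27.5% for Emilin1 and 27.6% for Efemp2 (1781, 1239, 2593 and 2973 UMIs). In the section labelled male the shares were 43.1% for Eln and 37.5%, 28.0% and 23.5% for Fbln5, Emilin1 and Efemp2, with 2261, 907, 1357 and 2271 UMIs. Genes with few UMIs have high shares by counting alone, such as Mfap2 with 42.0% of 324 UMIs in the section labelled male. The variance of Eln counts over spots was 8.16 and 6.70 times their mean, the highest of the 10 genes in both sections, ahead of Mfap5 with 5.53 and 3.10 and Mfap4 with 4.36 and 4.44, and of Emilin1 with 1.72 and 1.45. A single spot held up to 66 Eln UMIs in the section labelled female.

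In those Eln-rich spots the other genes were set beside the rest of the IZ. Fbln5 was 1.89- and 2.22-fold higher there at 5 dpi, Mfap4 1.51- and 2.03-fold and Fbln1 1.66- and 1.76-fold. Mfap2 was 1.39- and 1.63-fold higher, Mfap5 1.27- and 1.25-fold, Fbn1 1.17- and 1.2-fold and Emilin1 1.11- and 1.12-fold, and Fbln2 and Efemp2 lay between 0.932- and 1.19-fold. The spots had been picked by their Eln counts, and they also had more UMIs, a median of 9794 against 6458 and 7498 against 6765 non-mitochondrial UMIs, so these ratios are a description only.

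**Figure D4:**
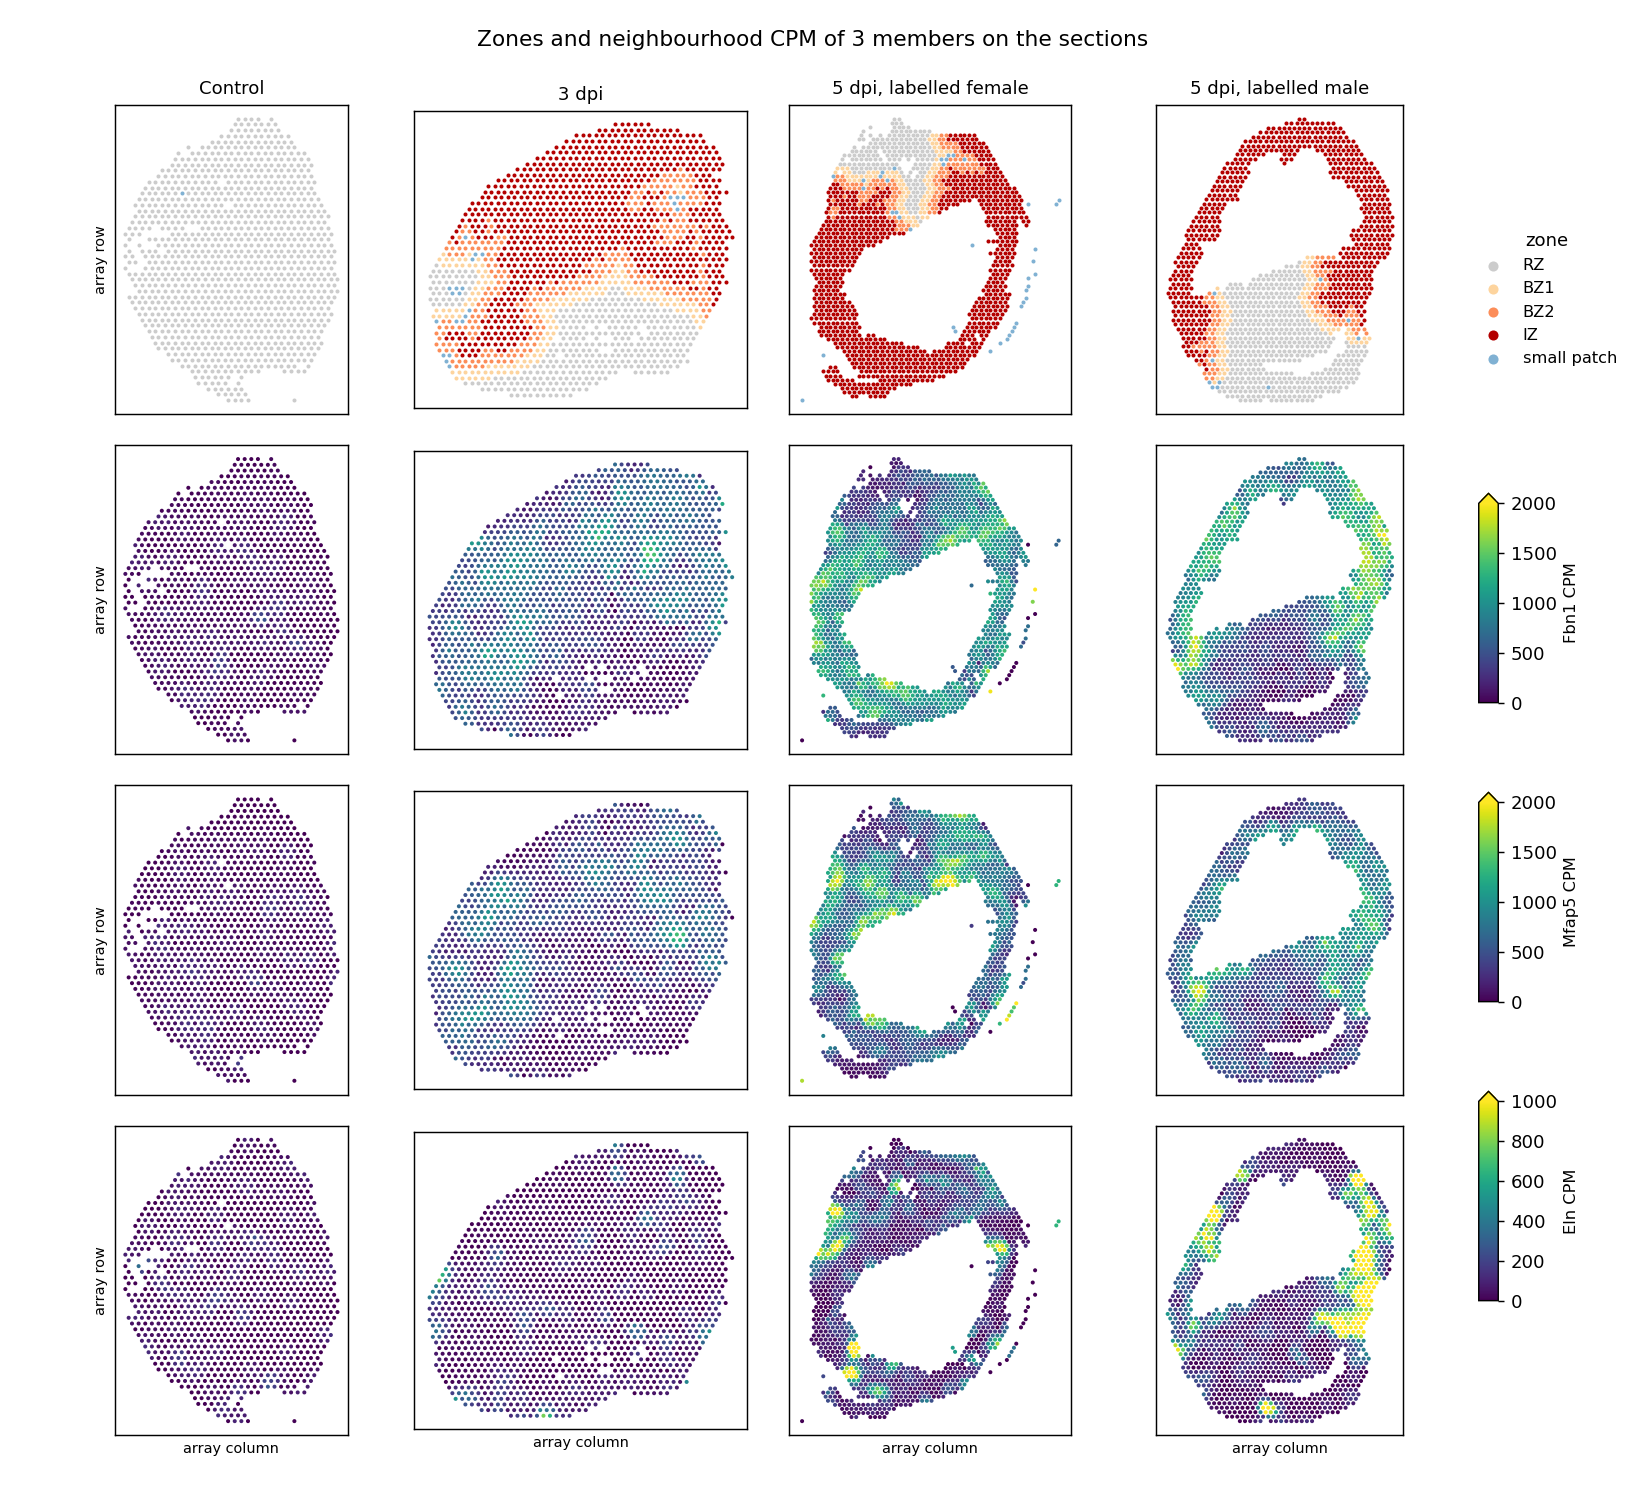
Zones (top) and CPM of Fbn1, Mfap5 and Eln over the spots of the 4 sections, each value taken over a spot and its direct neighbours and drawn at its array row and column, with colours capped at the top of each scale. Fbn1 covered the whole IZ at 5 dpi, Mfap5 was bright along the border, and Eln lay in a few bright patches, where the top 10% of IZ spots held 55.9% and 43.1% of its UMIs.

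The remote tissue of the infarcted hearts was set beside the control heart. Of 8 genes that reached 50 CPM, 6 were at least 2-fold higher in the RZ of all 3 hearts, as 4.14% of 2920 genes were: Fbn1 (3.21-, 5.43- and 4.84-fold), Mfap5 (2.58-, 6.64- and 5.87-fold), Efemp2 (4.05-, 5.37- and 3.69-fold), Mfap4, Emilin1 and Eln (2.28-, 3.98- and 2.56-fold). Fbln2 was 1.93-, 3.16- and 2.34-fold higher. Eln, Mfap4, Emilin1 and Efemp2 were at 17.1 to 36.9 CPM in the control. They reached 50 CPM only in infarcted hearts, so they entered the count through the side on which they were high. Fbln5 and Mfap2 stayed under 50 CPM throughout and were not counted. Fbln1 had ratios of 1.44, 1.15 and 0.492 and did not move one way. The fibroblast list was at 1226 CPM in the control and at 3093, 3686 and 2598 CPM in these remote zones. Its collagen gene Col1a1 was 6.09-, 8.55- and 4.26-fold higher there than in the control, whereas Dcn (0.943-, 1.04- and 0.967-fold) and Pdgfra (1.16-, 1.13- and 1.0-fold) stayed near the control. The list's part in the difference was not tested. There is 1 control heart and so no test.

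Per UMI of a fibroblast list that is carried by collagen genes, most of the 10 genes were lower in IZ than in RZ, as most genes were. Fewer cells of a type and less RNA per cell cannot be told apart in spots, so the UMIs of the 10 genes were also given per 100 UMIs of the fibroblast list, which holds Col1a1, Col1a2, Col3a1, Dcn, Pdgfra, Tcf21, Lum and Dpt. The 10 genes made up 39.6 UMIs per 100 in the control, 38.2 in RZ and 24.5 in IZ at 3 dpi, and 51.3 and 23.6, and 55.2 and 29.7 at 5 dpi. The list itself was 3.65-fold higher in IZ than in RZ at 3 dpi and 5.77- and 7.35-fold at 5 dpi, so that 91.4%, 96.8% and 96.3% of 3846 genes were not higher in IZ on this scale, and the count of the 10 genes is read against that. None of them was higher in IZ than in RZ per fibroblast UMI at 3 dpi or in the 5 dpi section labelled female, and 2 were in that labelled male, Mfap4 and Efemp2, by 1.03- and 1.01-fold. Eln was at 2.73 UMIs per 100 in RZ and 0.387 in IZ at 3 dpi, 3.98 and 1.11, and 3.64 and 2.45 at 5 dpi. Efemp2 lay closer together, at 2.24 and 2.12, 2.49 and 1.86, and 2.43 and 2.46. The markers of the list did not move together: Col1a1 was 5.64-, 8.08- and 13.4-fold higher in IZ than in RZ, Pdgfra 2.26-, 2.25- and 1.87-fold, and Dcn, which encodes decorin, had ratios of 0.802, 1.07 and 1.32 and was lower in the test (log2 fold change -0.34, SE 0.14, edgeR's adjusted p 0.044). The macrophage list (6 genes) was also higher in IZ, at 1251 to 1651 CPM in RZ and 6267 to 9987 CPM in IZ, as were the smooth muscle list, at 316, 542 and 385 CPM in RZ and 848, 1967 and 1597 in IZ, and the neutrophil list (4 genes), at 21.8 to 80 CPM in RZ and 223 to 254 CPM in IZ. The mesothelial list was at 1.51, 14.3 and 13.3 CPM in RZ and 7.81, 97.0 and 19.4 in IZ. The endothelial list was lower in IZ, at 1743, 2326 and 3416 CPM in RZ and 1609, 981.5 and 1290 in IZ. So was the pericyte list, at 317 to 451 CPM in RZ and 190 to 271 in IZ. The part of these lists in the IZ to RZ differences was not tested.

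Outside the infarct and its borders, the spots in the top 5% by smooth muscle genes (Myh11, Tagln, Acta2, Cnn1) were compared with the other spots in all 4 hearts, since vessel walls hold elastic fibres. Of the 10 genes 3 were higher in the smooth-muscle-rich spots, where 0.459% of 5443 genes were higher (the quasi-likelihood test of edgeR with the section as a block and Benjamini-Hochberg adjustment). Fbln5 was at 35.3 CPM in the rich and 15.7 in the other spots of the control, 103 and 37.2 at 3 dpi, and 296 and 31.8, and 213 and 36.6 at 5 dpi. The rich spots were higher in 4 of 4 hearts, with a log2 fold change of 2.16 (SE 0.33, edgeR's adjusted p 6.53e-07). Eln was at 88.2 and 34.5 CPM in the control, 181 and 81.4 at 3 dpi, and 493 and 125, and 330 and 84.5 at 5 dpi, also higher in 4 of 4 hearts (log2 fold change 1.63, SE 0.22, edgeR's adjusted p 1.06e-08).

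Mfap4 passed narrowly, with a log2 fold change of 0.88 (SE 0.24, edgeR's adjusted p 0.0473), and lost the call when any 1 of the 4 hearts was left out. Its log2 value was 0.64 to 1.41 over all alternatives. The scaffold genes did not pass: Fbn1 had a log2 fold change of 0.36 (SE 0.17, edgeR's adjusted p 0.54), Mfap5 0.20 (SE 0.17) and Mfap2 -0.07 (SE 0.64), the latter with 1 or 2 UMIs in the rich spots of each heart. Fbln2, at 0.18 (SE 0.17), did not pass either. The rich spots were few, 57, 19, 10 and 27, and held 15, 7, 25 and 34 Eln UMIs and 6, 4, 15 and 22 Fbln5 UMIs. Without the section as a block the values were 1.59 for Eln and 2.19 for Fbln5, with adjusted p by edgeR of 0.924 and 0.237. The fibroblast list was at 1652 CPM in the rich and 1206 in the other spots of the control, 4130 and 3062 at 3 dpi, and 4302 and 3646, and 2890 and 2585 at 5 dpi, and its part was not tested.

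**Figure D5:**
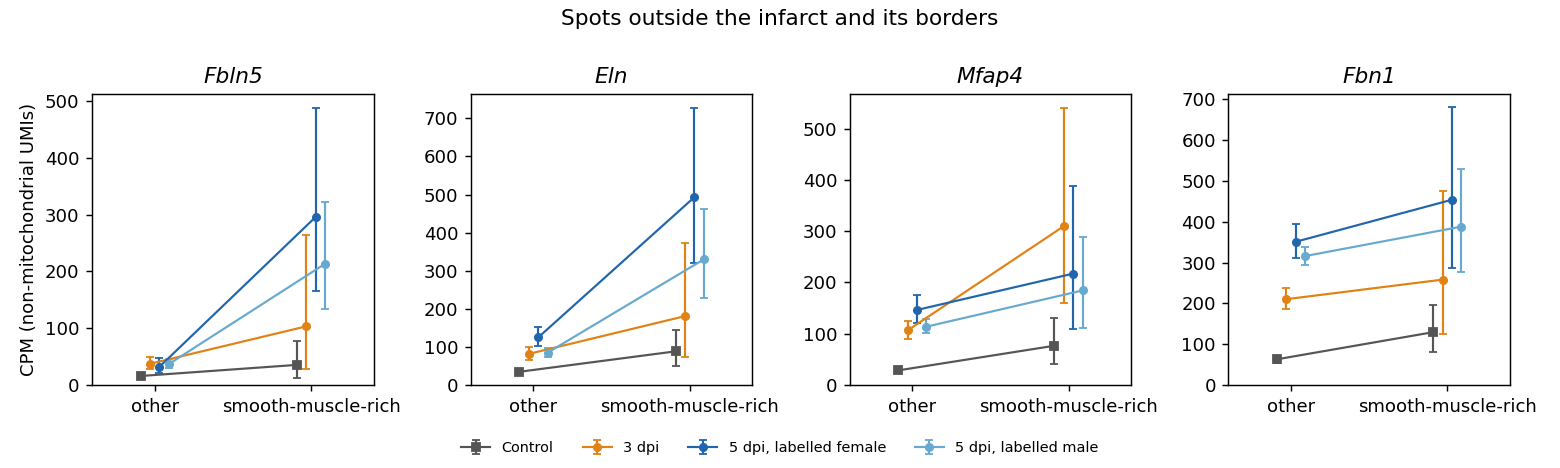
CPM (vertical axes, from 0) of Fbln5, Eln, Mfap4 and Fbn1 in smooth-muscle-rich and other spots outside the infarct and its borders, with lines that join the 2 spot classes of a heart and 95% Poisson intervals. Fbln5 and Eln were higher in the rich spots of 4 of 4 hearts, and Fbn1 had a log2 fold change of 0.36 that did not pass the test.

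Genes that act with the elastic fibre were read from lists of cross-linking enzymes, microfibril partners, proteases with their inhibitors, and receptors, in the same IZ against RZ test of edgeR with Benjamini-Hochberg adjustment, in which 27.2% of all genes were higher and 25.2% lower. Of the lysyl oxidases, which cross-link elastin and collagen, all 4 tested of 5 were higher in IZ, with Lox at 3.06 on the log2 scale as the highest and Loxl1 at 1.3 as the lowest. Lox was at 32.4 CPM in RZ and 334 in IZ at 3 dpi, 77.6 and 705, and 44.3 and 618 at 5 dpi, with no overlap between the zones. Of the 16 partners, 13 were tested, of which 7 were higher and 4 lower, the latter a share near that of all genes. Ltbp2, a latent TGF-beta binding protein, was the highest at 2.91, and Adamtsl5, a protein of the ADAMTS-like family that binds microfibrils, the lowest at -1.49. Ltbp4, which takes part in elastic fibre assembly, was at -0.83 (SE 0.19, edgeR's adjusted p 0.00086), although its CPM in the section labelled male was 279 in RZ and 351 in IZ.

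All 9 tested of 12 proteases and inhibitors were higher in IZ, against 27.2% of all genes, from Mmp2 at 0.92 to Mmp12, the macrophage elastase, at 4.34. Elane, which encodes neutrophil elastase, and Mmp7 were among the 3 not tested, with 0 UMIs in every zone. Of the 6 receptor genes, all 6 were higher, from Neu1 at 0.80 to Itgb3, an integrin subunit, at 2.21. These lists hold genes of macrophages and of neutrophils, whose markers were higher in IZ as given above, and their part was not tested. In the rim against the core, 7 of 10 tested proteases and inhibitors were lower, where 6.73% of all genes were lower and 11.8% higher, among them Mmp9 (-3.15), Mmp12 (-1.80) and Ctss (-1.23), and 2 were higher, Serpinb1a (0.80) and Mmp2 (0.57). In the comparison of the 5 dpi hearts with the 3 dpi heart, Adamtsl2, which binds fibrillin-1, and Mmp2 differed in the direction of Eln, by 3.00 (SE 0.44, edgeR's adjusted p 2.35e-05) and 1.96 (SE 0.28, edgeR's adjusted p 1.83e-05), and Bgn by 0.87 (edgeR's adjusted p 0.0467). These were 2 of 13 partners and 1 of 9 proteases and inhibitors tested, with 0 of 4 lysyl oxidases and 0 of 6 receptors, where 0.709% of all genes were higher and 2.33% lower.

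The genes with the most similar profile were sought for each of the 10 over 13 sums, the control and the 4 zones of the 3 infarcted sections, by Pearson's r of log2(CPM + 1) among 4098 genes. The sums come from 4 libraries and share their depth and cell make-up, so r is a description. Fbn1 was nearest to Lox (0.989), Pcolce (0.985) and Postn (0.982), Fbln2 to Loxl3 (0.992), Fam20c (0.991) and Sparc (0.989), and Efemp2 to Fn1, Col3a1 (both 0.989) and Loxl1 (0.988), genes of fibrillar matrix among them. Emilin1 was nearest to Qsox1 (0.990), Ptgis and Fstl1, Mfap5 to Col4a2 (0.98), Thbs4 and Igfbp7, Mfap4 to Ltbp3 (0.979), Bgn and Fndc1, and Mfap2 to Slamf9 (0.975), Plvap and C1qtnf6. Eln was nearest to Fbln5 (0.924), Adamtsl2 (0.897) and Serping1 (0.877), and Fbln5 to Ccn5 (0.956), Mfap4 and Wfdc18 (both 0.927). Fbln1 had no close neighbour, with Lrg1 at 0.723, Prelp at 0.706 and Htra3 at 0.703, and its r with Fbn1 was -0.08. Among the other pairs of the set, r ran up to 0.98 between Fbln2 and Efemp2.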

How the data were processed

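Per the labels and the methods, libraries were mapped by the authors with Space Ranger (1.3.1 per the file headers) to a mouse reference. The labels name mm10 and the methods an Ensembl reference, so no gene positions are given except those of the RefSeq windows. The deposited values are whole UMI counts of each gene in each spot, which the authors had not normalised, and spots under tissue were marked by the authors by hand.

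The 10 genes and all lists were chosen with earlier results of these data known. Spots marked as tissue with at least 500 UMIs, 250 genes and at most 50% mitochondrial UMIs were kept, and smaller patches than 10 low spots entered no zone. UMIs were summed per section and zone and tested with edgeR 4.0.16 (limma 3.58.1, R 4.3.3): quasi-likelihood fit, TMM scaling of all UMIs, default filter on low counts, section as block, Benjamini-Hochberg threshold 0.05. The block was used because the zones, or the spot classes, of a section come from 1 heart. DESeq2 1.42.0 was an alternative. Descriptions used Python 3.11.15, NumPy 2.4.6, SciPy 1.17.1 and pandas 2.3.3. The fits were tested on simulated data. Other alternatives were the low-count filter, scaling, IZ limits of 0.3 and 0.7, all marked spots, the size of the smooth muscle class and leaving out each section. All 10 genes are named. For the pathway lists the highest and lowest log2 fold change are named, and for similar profiles the 3 nearest genes. Pathway genes named in the comparisons of 5 with 3 dpi and of rim with core were picked after their values were seen.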

Additional observations from a re-analysis of the deposited data

Results flagged for a closer look

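The IZ to RZ ratio of 4 genes differed between the 5 dpi hearts and the 3 dpi heart in the interaction fit of edgeR. The fit was added after the levels had been seen and has 1 heart at 3 dpi, so it cannot assign the difference to time. The log2 difference was 2.51 for Eln, 2.47 for Fbln1, 2.23 for Fbln5 and 1.90 for Mfap4. The 5 dpi hearts differed from each other, with log2 ratios of IZ over RZ of 0.69 and 2.30 for Eln and -0.34 and 1.78 for Fbln1, against -0.95 and -1.68 in the 3 dpi heart. It had the same direction and passed with DESeq2, with library totals for scaling and with IZ limits of 0.3 and 0.7.

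In the matrix of the 5 dpi section labelled male, 623 spots not marked as tissue were left out of all comparisons. The 10 genes were at 3421 CPM there (3345 to 3499), above the 487 CPM of the control and below the 4044 CPM of the tissue spots of that section.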

How the results depend on the processing

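The section block pairs the zones of 1 heart. With no replicate block the calls fell from 7 to 0 for BZ2 against RZ, from 4 to 2 for IZ against BZ2, from 3 to 0 for smooth-muscle-rich spots and from 4 to 0 for rim against core. Over all genes the higher calls of BZ2 against RZ fell from 383 to 32, while log2 values of the 7 genes stayed at 0.76 to 0.97. Log2 values turned to -0.12 (Emilin1) and -0.01 (Efemp2) in smooth-muscle-rich spots and -0.02 (Fbln2) in the rim. Library totals in place of TMM moved all genes: the median went from 0.04 to 0.63 for IZ against BZ2, with 5410 in place of 1474 higher calls, from 0.08 to 1.03 for IZ against RZ, from -0.05 to 0.08 for smooth-muscle-rich spots and from 0.01 to -0.28 for the rim. IZ against BZ2 then gave 8 calls for the 10 genes with Mfap5 at 0.41, Fbln1 in IZ against RZ was at 0.55, Mfap2 in smooth-muscle-rich spots at 0.09, and in the rim Emilin1 and Fbln2 were at -0.13 and -0.27, with 1 gene called lower. Of these values Mfap5 and Fbln1 lay below, and the others at or above, the shifted median. At an IZ limit of 0.3, IZ against BZ2 gave 2 calls higher and 1 lower (Mfap5, -0.53), and Mfap2, Eln and Fbln5 turned to -0.46, -0.28 and -0.14. At 0.7, BZ2 against RZ gave 3 calls, IZ against BZ2 7 with Mfap5 at 0.31 and Fbln1 at -0.03, and the comparison of the 5 dpi hearts with the 3 dpi heart called 1 gene lower and turned Fbn1 to -0.44. With no filter on low counts, 1 gene was called lower in BZ2 against RZ, and Emilin1, Mfap5, Fbln2 and Efemp2 were at -0.16, -0.03, -0.06 and -0.08 in smooth-muscle-rich spots, above a median of all genes of -0.41. Defining these by Myh11 and Cnn1 gave 0.48 for Mfap2 and -0.48 for Fbln1, and taking the top 10% gave -0.13 for Fbln1 and -0.04 for Efemp2. DESeq2 gave no adjusted p for the 10 genes there.

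When each section was left out in turn, calls ranged from 3 to 7 for BZ2 against RZ, 2 to 5 for IZ against BZ2 and 0 to 1 for lower genes in IZ against RZ. Over all genes the like higher calls ran from 82 to 320 and from 826 to 1292, and the lower calls from 2135 to 2373. With all sections they were 383, 1474 and 2528. Log2 values that changed sign ranged from -1.36 to 0.40 (Fbln1) and -0.34 to 1.16 (Eln) for IZ against RZ, -0.06 to 0.59 (Fbln5) for BZ2 against RZ, -0.39 to 0.49 (Eln) and -0.34 to 0.53 (Fbln1) for IZ against BZ2, -0.04 to 0.27 (Emilin1), -0.06 to 0.32 (Mfap5), -0.10 to 0.47 (Fbln1) and -0.24 to 0.25 (Mfap2) for smooth-muscle-rich spots, and -0.13 to 0.14 (Fbln2) and -0.02 to 0.27 (Emilin1) for the rim. The comparison of the 5 dpi hearts with the 3 dpi heart could not be fitted with a section left out.

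The summed level of the 10 genes, in the order control, 3 dpi, 5 dpi labelled female and labelled male, was 291.8, 1835, 3940 and 3466 CPM over all UMIs, 542.4, 2445, 4639 and 4200 CPM without cardiomyocyte UMIs and 375.5, 1739, 3408 and 3212 CPM without Fbln2, and 4502 CPM at 5 dpi labelled female with all marked spots. Over single genes, 436 alternative values kept direction and side of the threshold, 48 lost and 21 gained the call, and 34 changed sign. The cause of these changes was not tested. Low counts limit Mfap2 in the control and Eln and Fbln5 in the smooth-muscle-rich spots.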
